A study of Mus musculus with 10 samples.

Results

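The acute phase proteins examined here are the products of 10 mouse genes: the serum amyloid A genes Saa1, Saa2, Saa3 and Saa4, the orosomucoid genes Orm1 and Orm2, lipocalin 2 (Lcn2), haptoglobin (Hp), C-reactive protein (Crp) and the metalloreductase Steap4. They were taken by name, and all 10 were found among the 55385 gene rows of the deposited tables. All 10 also passed the filter on low counts that left 12872 genes for testing. RNA from frozen and homogenised whole mouse liver had been sequenced on the BGISeq-500 instrument in 10 libraries. The genotype labelled Alk1-HEC-KO and the Control genotype, labelled Ctrl, had 5 libraries each. Alk1 is another name of Acvrl1, a receptor of the TGF-beta family that is found mainly on endothelial cells. The labels do not spell out HEC, and the agent, promoter or cell type behind the knockout, the part of the gene it removes, and the strain, age and treatment of the mice are not given in the sources used here. The labels also do not state whether each library came from its own animal, so the p-values describe the spread between libraries.

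The acute phase response is the change in secreted liver proteins that follows infection, injury or inflammation. Cytokines, above all IL-6 and IL-1, bind receptors on hepatocytes and act through STAT3, NF-kB and C/EBP factors, and SOCS3 is made in turn and dampens the signal. Serum amyloid A proteins travel on high-density lipoprotein and are the major acute phase proteins of the mouse, in which C-reactive protein, a leading acute phase protein in humans, responds only weakly.

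The 10 genes lie in 6 places of the genome (GRCm38). Saa3 (chr7:46711998-46715700, minus strand), Saa4 (chr7:46727998-46732603, minus strand), Saa1 (chr7:46740497-46742980, minus strand) and Saa2 (chr7:46751790-46754313, plus strand) form 1 cluster. Orm1 (chr4:63344560-63348163) and Orm2 (chr4:63362449-63365878) share the plus strand of a second cluster with Orm3 (chr4:63356162-63359511), which was not among the 10. Lcn2 (chr2:32384633-32388252, minus strand), Hp (chr8:109575128-109579172, minus strand), Crp (chr1:172698055-172833031, plus strand) and Steap4 (chr5:7960457-7982213, plus strand) stand alone. All are annotated as protein-coding.

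Promoter sequences from RefSeq (GRCm38.p6) were matched for 8 of the 10 genes, the exceptions being Orm1 and Hp. Shown here are the 250 bases before the RefSeq start of 5 genes, chosen after their values were seen: the near-identical pair Saa1 and Saa2 with their neighbour Saa4, the strongly varying Orm2, and Crp, the steady gene whose window held no match. The windows of Saa3, Lcn2 and Steap4, each with 1 match, are not printed; Lcn2 varied more between livers than Saa1 and Orm2, and the within-group spread of Steap4 was close to that of Crp. Capitals mark matches to the C/EBP motif TTGCNNAA on either strand.
Saa1, chr7:46742981-46743230, minus strand: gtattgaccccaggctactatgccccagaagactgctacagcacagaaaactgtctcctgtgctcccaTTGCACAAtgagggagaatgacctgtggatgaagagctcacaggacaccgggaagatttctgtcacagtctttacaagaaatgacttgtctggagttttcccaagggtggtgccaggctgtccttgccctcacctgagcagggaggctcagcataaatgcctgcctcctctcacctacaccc
Saa2, chr7:46751583-46751832, plus strand: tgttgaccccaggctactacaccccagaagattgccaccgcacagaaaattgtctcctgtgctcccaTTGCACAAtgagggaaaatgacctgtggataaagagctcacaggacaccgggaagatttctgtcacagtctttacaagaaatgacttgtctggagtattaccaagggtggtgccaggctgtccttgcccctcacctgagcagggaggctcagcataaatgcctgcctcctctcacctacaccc
Orm2, chr4:63362199-63362448, plus strand: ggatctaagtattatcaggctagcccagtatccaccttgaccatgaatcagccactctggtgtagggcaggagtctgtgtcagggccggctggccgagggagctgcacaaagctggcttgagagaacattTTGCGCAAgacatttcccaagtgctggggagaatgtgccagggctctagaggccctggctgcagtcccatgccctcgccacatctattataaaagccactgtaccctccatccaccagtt
Saa4, chr7:46732604-46732853, minus strand: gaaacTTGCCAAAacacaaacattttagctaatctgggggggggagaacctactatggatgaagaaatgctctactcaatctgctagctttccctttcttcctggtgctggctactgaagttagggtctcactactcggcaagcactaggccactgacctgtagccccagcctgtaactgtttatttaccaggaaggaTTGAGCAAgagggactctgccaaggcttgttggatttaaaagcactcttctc
Crp, chr1:172697806-172698055, plus strand: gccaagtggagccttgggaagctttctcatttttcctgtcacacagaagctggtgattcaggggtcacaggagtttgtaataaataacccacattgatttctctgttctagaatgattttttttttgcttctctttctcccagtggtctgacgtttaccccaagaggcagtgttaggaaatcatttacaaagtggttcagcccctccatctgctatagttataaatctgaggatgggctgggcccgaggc
The Saa1 and Saa2 windows were identical at 238 of 251 aligned positions (94.8%), whereas those of Saa1 and Saa4 shared 49.5% of aligned positions. The letters TTGCNNAA occurred on either strand in 7 of the 8 windows, against 9.56% of all 32851 promoter windows of this length. Saa1 and Saa2 held the same 8 letters, TTGCACAA, and Orm2 held TTGCGCAA. Saa4 held 2 matches, TTGCCAAA and TTGAGCAA, and Crp held none. The STAT motif TTCNNNGAA (7.02% of all windows) and an NF-kB motif, GGG and TTCC with any 3 bases between them (4.65% of all windows), also searched on both strands, each matched only the Steap4 window among the 8, and none of the 3 motifs overlapped another there. A match describes these letters and not a bound site.

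Totals ran from 20.91 to 21.56 M (mega) estimated counts per library. Hepatocyte markers summed to 39171 to 76205 TPM in the labelled Alk1-HEC-KO libraries and 42219 to 73979 TPM in Control libraries. Acvrl1 went against the label. It had 1.15, 1.39, 1.22, 1.92 and 1.12 TPM in libraries 1 to 5 labelled Alk1-HEC-KO, against 1.05, 0.296, 0.391, 0.661 and 0.951 TPM in Control libraries 1 to 5. The groups did not overlap in TPM (log2 fold change 0.99 ± 0.32, SE, adjusted p = 0.336 by the quasi-likelihood test of edgeR with Benjamini-Hochberg adjustment over all tested genes). In estimated counts the groups did overlap, with 54 in library 5 labelled Alk1-HEC-KO and 55 in Control library 1. Libraries 4 and 5 labelled Alk1-HEC-KO and Control library 4 stood apart: Saa1, Saa2, Saa3, Orm1, Orm2 and Lcn2 were each higher in these 3 than in any of the other 7. Fitted differences and correlations of the 10 genes are also given without these 3 libraries, a setting chosen after the data were seen.

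The abundance of Saa1 and Saa2 differed more between libraries of a group than that of almost any other gene, and the difference between the groups was smaller than that spread. Saa1, a serum amyloid A protein made by hepatocytes, stood at 61.5, 196, 874, 6733 and 13331 TPM in libraries 1 to 5 labelled Alk1-HEC-KO, against 55.5, 49.7, 146, 6586 and 351 TPM in Control libraries 1 to 5. Control library 4 was thus level with library 4 labelled Alk1-HEC-KO, and only 2 of the 5 libraries labelled Alk1-HEC-KO exceeded it. Saa2, the other hepatocyte serum amyloid A, stood at 27.9, 48.9, 382, 4945 and 10989.5 TPM in the labelled Alk1-HEC-KO libraries and 29.0, 14.6, 41.5, 5332 and 75.6 TPM in Control libraries. The highest library held 268 times the Saa1 and 751 times the Saa2 of the lowest. Fitted log2 fold changes, labelled Alk1-HEC-KO over Control, were 1.86 ± 1.86 (SE) for Saa1 (edgeR adjusted p = 0.835) and 1.91 ± 2.16 for Saa2 (edgeR adjusted p = 0.849). These were 1.02 ± 1.102 and 1.63 ± 1.05 without the 3 high libraries. Saa1 and Saa2 together made up 2.47 to 57.1% of the summed TPM of the 10 genes in libraries labelled Alk1-HEC-KO and 2.10 to 47.2% in Control libraries. Where both were high they were nearer to equal: the ratio of Saa1 to Saa2 was 1.36 and 1.21 in libraries 4 and 5 labelled Alk1-HEC-KO and 1.24 in Control library 4, and 1.91 to 4.64 in the other 7. The pair shares sequence (26.8% of the 31-base stretches of Saa1 transcripts also occur in Saa2), so the split of reads between them is uncertain. In homogenised liver, more RNA per cell and more cells of a type cannot be told apart.

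**Figure D1:**
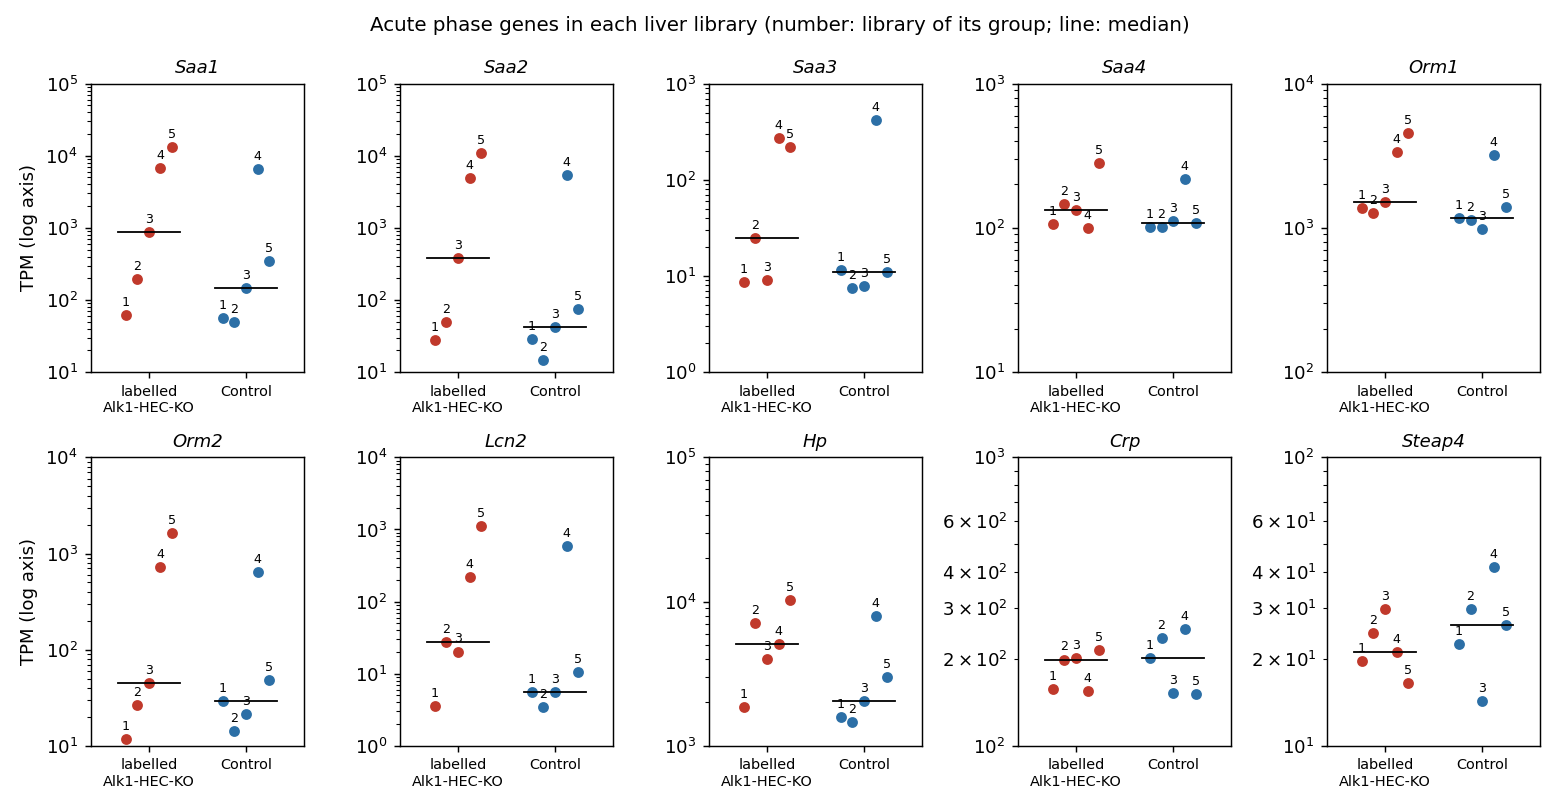
TPM (log axis) of each of the 10 acute phase genes in each liver library, labelled Alk1-HEC-KO on the left and Control on the right, with numbers naming the library and lines the group median. Libraries 4 and 5 labelled Alk1-HEC-KO and Control library 4 lie highest for Saa1, Saa2, Saa3, Orm1, Orm2 and Lcn2, while Crp and Steap4 stay within 1.68-fold and 2.90-fold over all 10 libraries.

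The neighbours Saa3 and Saa4 followed these 2 genes to unequal degrees. Saa3, which in mice is made largely by macrophages and fat cells, stood at 8.58, 24.5, 9.06, 270.5 and 222 TPM in the labelled Alk1-HEC-KO libraries and 11.4, 7.52, 7.82, 421 and 11.1 TPM in Control libraries. The same 3 libraries were highest, yet library 3 labelled Alk1-HEC-KO, with 874 TPM of Saa1, had no more Saa3 than the low libraries. Saa4, a serum amyloid A that is produced constitutively, stood at 106, 147, 132, 99.4 and 282 TPM in the labelled Alk1-HEC-KO libraries and 101, 101, 112, 217 and 108 TPM in Control libraries. Its lowest value in any library belonged to library 4 labelled Alk1-HEC-KO, 1 of the 3 with the most Saa1. Fitted log2 fold changes were 0.43 ± 1.55 for Saa3 (edgeR adjusted p = 0.954) and 0.29 ± 0.38 for Saa4 (edgeR adjusted p = 0.867), and without the 3 high libraries 0.28 ± 0.36 and 0.03 ± 0.18.

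Of the carriers of small molecules and metals, Orm2 and Lcn2 spanned 141-fold and 323-fold over the 10 libraries, whereas Orm1 and Hp, abundant in every library, spanned 4.64-fold and 6.94-fold. Orm2, an orosomucoid that binds lipophilic molecules in plasma, stood at 11.7, 26.5, 45.0, 723 and 1653 TPM in the labelled Alk1-HEC-KO libraries and 29.5, 14.4, 21.6, 635 and 48.5 TPM in Control libraries. Orm1, its neighbour, stood at 1367, 1262, 1522, 3349.6 and 4549 TPM in the labelled Alk1-HEC-KO libraries and 1166, 1133, 981, 3200.0 and 1389 TPM in Control libraries. Orm1 therefore exceeded Orm2 by 117-fold in library 1 labelled Alk1-HEC-KO, but by 4.64-fold and 2.75-fold in libraries 4 and 5 of that label and by 5.04-fold in Control library 4. The log2 fold changes were 2.02 ± 1.69 for Orm2 (edgeR adjusted p = 0.793) and 0.70 ± 0.50 for Orm1 (edgeR adjusted p = 0.743). Orm2 was at -0.31 ± 0.53 and Orm1 at 0.03 ± 0.19 without the 3 high libraries. Of the 31-base stretches of Orm2 transcripts, 27.5% also occur in Orm1, so that the split between these genes is uncertain too. Orm3 remained low, at 1.02 to 21.5 TPM in the labelled Alk1-HEC-KO libraries and 1.92 to 3.39 TPM in Control libraries.

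Lcn2, which withholds iron from bacteria by binding their siderophores, stood at 3.53, 27.3, 20.3, 219.6 and 1111 TPM in the labelled Alk1-HEC-KO libraries and 5.58, 3.44, 5.60, 592 and 10.4 TPM in Control libraries. Libraries 2 and 3 labelled Alk1-HEC-KO stood between the low and the 3 high libraries. Hp, which binds free haemoglobin, stood at 1857, 7071, 4026, 5054 and 10202 TPM in the labelled Alk1-HEC-KO libraries and 1595, 1469.9, 2032, 7954 and 3001 TPM in Control libraries. Library 2 labelled Alk1-HEC-KO had the third highest Hp although its Saa1 was 196 TPM, and Hp was 36.1 times as abundant as Saa1 there against 0.751 and 0.765 times in libraries 4 and 5 of that label. The log2 fold changes were 1.53 ± 1.98 for Lcn2 (edgeR adjusted p = 0.866) and 0.90 ± 0.59 for Hp (edgeR adjusted p = 0.718), and without the 3 high libraries 1.14 ± 0.64 and 0.74 ± 0.42.

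Crp and Steap4 were steady. Crp, a pentraxin that binds phosphocholine, stood at 158, 199, 201, 155 and 214 TPM in the labelled Alk1-HEC-KO libraries and 201, 237, 152, 254 and 151 TPM in Control libraries. Library 5 labelled Alk1-HEC-KO and Control library 4 had the most Crp of their groups, as they had of Saa1. Steap4, which reduces iron and copper at the membrane, stood at 19.6, 24.5, 29.8, 21.2 and 16.5 TPM in the labelled Alk1-HEC-KO libraries and 22.5, 29.9, 14.3, 41.6 and 26.3 TPM in Control libraries. The groups overlapped for both, and library 5 labelled Alk1-HEC-KO, the highest of all for Saa1, had the lowest Steap4 of its group, whereas Control library 4, the highest Control for Saa1, had the most Steap4 of all 10. The log2 fold changes were -0.13 ± 0.18 for Crp (edgeR adjusted p = 0.869) and -0.32 ± 0.17 for Steap4 (edgeR adjusted p = 0.664), and without the 3 high libraries -0.21 ± 0.16 and -0.11 ± 0.18.

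None of the 10 genes passed the test between the groups (adjusted p under 0.05 by edgeR), which called 46 of 12872 tested genes (0.357%), 24 of them higher in libraries labelled Alk1-HEC-KO (0.186%). None had an unadjusted p under 0.05, against 8.44% of all tested genes, and DESeq2 called none of the 10 and 1.18% of the genes it tested. For none did the groups fail to overlap, against 1.68% of tested genes. The fitted difference was above 0 for 8 of the 10 (50.4% of all tested genes), and above 1 on the log2 scale for Saa1, Saa2, Orm2 and Lcn2 (2.03% of all tested genes). The median log2 fold change was 0.80 over the 10 genes and 0.0022 over all tested genes. This median turned on single libraries: it was 2.49 without Control library 4, when 6 of the 10 had an unadjusted p under 0.05 and the lowest edgeR adjusted p was 0.431, and -0.03 without library 5 labelled Alk1-HEC-KO, when 5 differences were above and 5 below 0. Without the 3 high libraries it was 0.15, with 7 above and 3 below 0 and a lowest edgeR adjusted p of 0.984.

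The serial numbers of the deposited files fall into 3 runs of consecutive numbers, whose meaning is not given in the sources used here. The runs were unequal: the first held 1 library labelled Alk1-HEC-KO and 2 Control libraries, the second 1 and 3, and the third 3 labelled Alk1-HEC-KO (libraries 2, 4 and 5) and no Control. Within the first run the labelled Alk1-HEC-KO library differed from the Control mean by 0.28 for Saa1, -0.77 for Orm2, -0.28 for Lcn2 and 0.35 for Hp in log2 CPM (counts scaled to library size). Within the second run these differences were 0.03, -1.24, -0.97 and -0.22. With the run as a covariate all 10 fitted differences were below 0, with a median of -0.43 and none called by edgeR, and 5 genes were called in all. In the third run, label and run cannot be told apart, so its libraries do not bear on the fitted difference with this covariate. That difference sets only libraries 1 and 3 labelled Alk1-HEC-KO against the Control libraries of their runs. Control library 4 is kept there, while the high libraries 4 and 5 labelled Alk1-HEC-KO are not compared.

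**Figure D2:**
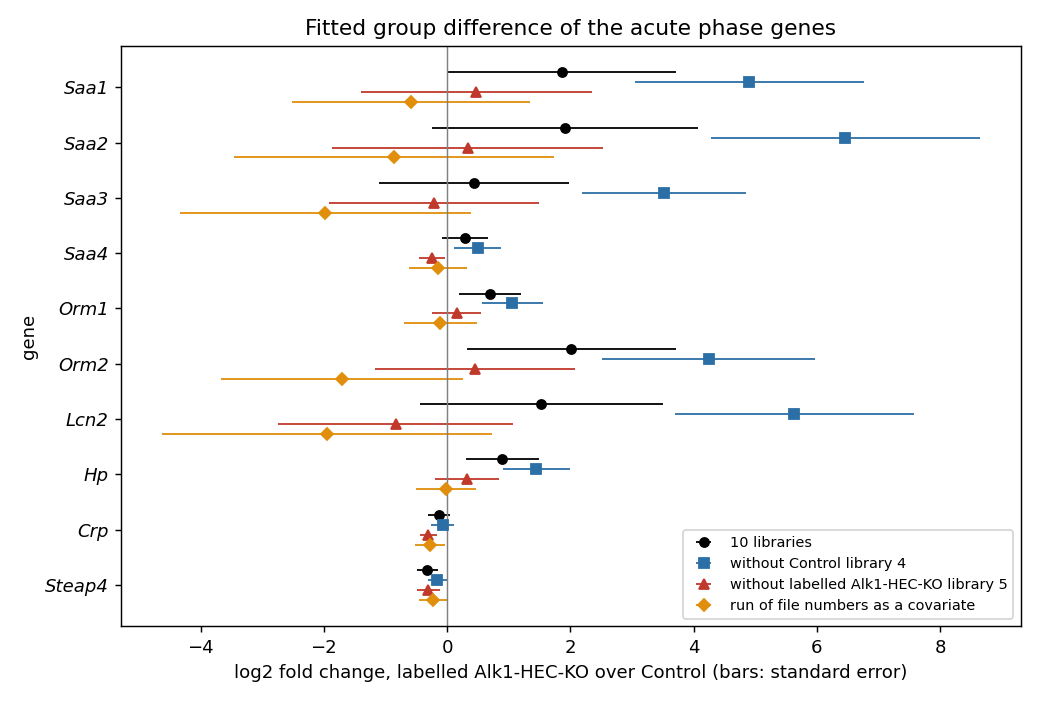
Fitted log2 fold change of each acute phase gene, labelled Alk1-HEC-KO over Control, with bars of 1 standard error, from all 10 libraries, without Control library 4, without library 5 labelled Alk1-HEC-KO, and with the run of file numbers as a covariate. The values of Saa1 were 1.86, 4.90, 0.47 and -0.59 in these 4 fits, and those of Crp stayed between -0.31 and -0.07 when single libraries were left out. With the run as a covariate only libraries 1 and 3 labelled Alk1-HEC-KO are compared with Control, as the remaining run holds no Control.

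The spread inside the groups set these genes apart from most of the liver transcriptome. The within-group SD of log2 CPM was 3.69 for Saa2, the highest of 12872 genes, 3.18 for Lcn2 (rank 6), 3.15 for Saa1 (rank 7), 2.76 for Orm2 (rank 11) and 2.48 for Saa3 (rank 18), against a median of 0.308 over all tested genes. Hp had an SD of 1.02 and Orm1 of 0.86, so that 7 of the 10 were in the top 5% of tested genes. Saa4 had 0.63, above 88.0% of tested genes. Steap4 (0.30) and Crp (0.29) lay just under the median. Without the 3 high libraries 4 of the 10 were in the top 5%.

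The members that varied did so together. Over the 45 pairs of genes, Pearson r of log2 CPM across the 10 libraries ran from 0.08 to 0.99 with a median of 0.78, and 28 pairs passed an adjusted permutation p of 0.05, all of them positive. Spearman rho passed in 14 pairs (median 0.65). Saa1 and Saa2 were the closest pair, with r = 0.99 (permutation p = 2e-05, adjusted over the 45 pairs 0.00045) and rho = 0.976 (permutation p = 5e-05, adjusted 0.0011), and r was 0.978 without the 2 libraries farthest from the median of Saa1. Those 2 were libraries 4 and 5 labelled Alk1-HEC-KO, so the high Control library 4 remained in these values. Saa1 and Orm2 had r = 0.964 (permutation p = 6e-05, adjusted 0.00054) and rho = 0.891 (permutation p = 0.0012, adjusted 0.0092), with r = 0.922 without those 2. The values for Saa1 and Lcn2 were r = 0.963 (permutation p = 6e-05, adjusted 0.00054) and rho = 0.903 (permutation p = 0.00076, adjusted 0.0068), with r = 0.928 without those 2. Lcn2 and Hp had r = 0.929 (permutation p = 1e-05, the smallest that the permutations can give, adjusted 0.00045) and rho = 0.976 (permutation p = 5e-05, adjusted 0.0011), with r = 0.836 without the 2 libraries farthest from the median of Lcn2. There Control library 4 and library 5 labelled Alk1-HEC-KO were left out, and the high library 4 of that label remained.

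The relations of Saa4 depended on which libraries were left out. It passed in 7 of its 9 pairs. Its r with Saa2 was 0.70 over 10 libraries (permutation p = 0.021, adjusted 0.033) and -0.04 without Control library 4 and library 5 labelled Alk1-HEC-KO, and with Crp it was 0.74 (permutation p = 0.011, adjusted 0.021) and -0.01. With those 2 left out, library 4 labelled Alk1-HEC-KO remained, with 4945 TPM of Saa2 and the lowest Saa4 (99.4 TPM). The r with Crp thus depended on those 2 libraries, while the r with Saa2 changed with which libraries were left out. Without all 3 high libraries, r of Saa4 was 0.50 with Saa2 (exact permutation p = 0.239, adjusted 0.532, rho = 0.714) and -0.17 with Crp (exact permutation p = 0.717, adjusted 0.891). With Saa1, r of Saa4 was 0.70 over 10 libraries (permutation p = 0.017, adjusted 0.030; rho 0.552, permutation p = 0.105, adjusted 0.175), 0.86 without libraries 4 and 5 labelled Alk1-HEC-KO, and 0.57 without all 3 (exact permutation p = 0.190, adjusted 0.506). Spearman rho of Saa4 with Saa2 was 0.649 (permutation p = 0.049, adjusted 0.097) and with Crp 0.564 (permutation p = 0.097, adjusted 0.175). Crp passed in no pair other than that with Saa4, and Steap4 in none: r with Saa1 was 0.36 for Crp (permutation p = 0.309, adjusted 0.395) and 0.23 for Steap4 (permutation p = 0.531, adjusted 0.583), with rho of 0.08 (permutation p = 0.839, adjusted 0.879) and 0.10 (permutation p = 0.785, adjusted 0.863). Without libraries 4 and 5 labelled Alk1-HEC-KO, the 2 farthest from the median of Saa1, r with Saa1 was 0.30 for Crp and 0.71 for Steap4, and Steap4 had r = 0.72 with Orm1 and 0.80 with Orm2. Without all 3 high libraries Steap4 had r = 0.25 with Saa1, 0.03 with Orm1 and 0.40 with Orm2. The median r with the other 9 genes was 0.95 for Orm2, 0.93 for Lcn2, 0.92 for Saa2, 0.91 for Orm1, 0.90 for Saa1 and for Saa3, 0.82 for Hp, 0.72 for Saa4, 0.41 for Crp and 0.23 for Steap4. With the 3 high libraries left out it was 0.48 for Saa4, above the 0.14 of Saa3 and of Orm1, and the other medians ran from -0.33 for Crp to 0.63 for Lcn2.

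**Figure D3:**
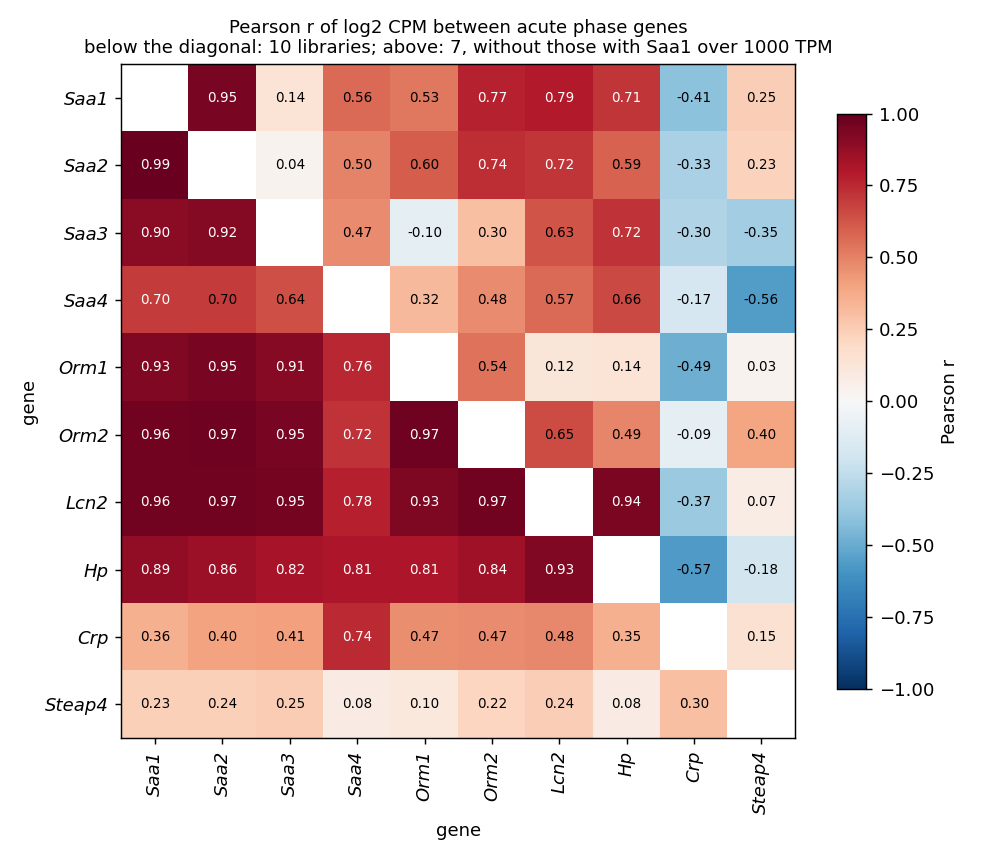
Pearson r of log2 CPM for each pair of acute phase genes, over 10 libraries below the diagonal and over the 7 libraries outside the 3 with the highest Saa1 above it. Saa1 with Saa2 was 0.99 below and 0.95 above the diagonal, Lcn2 with Hp 0.93 and 0.94, and Saa1 with Saa3 0.90 and 0.14.

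Among the 7 libraries left after the 3 high ones were taken out, only 2 pairs passed. Saa1 with Saa2 had r = 0.946 (exact permutation p = 0.0004, adjusted 0.018, rho = 0.964) and Lcn2 with Hp had r = 0.940 (exact permutation p = 0.0014, adjusted 0.031, rho = 0.964). The median r over pairs was then 0.32, from -0.57 to 0.95. Saa3 with Saa1 had r = 0.14 and Orm1 with Lcn2 0.12 there, against 0.90 and 0.93 over all 10. Saa1 still had r = 0.79 with Lcn2, 0.77 with Orm2 and 0.71 with Hp, none of which passed after adjustment (exact permutation p from 0.038 to 0.070, adjusted 0.392). Deviations from the group means gave 28 pairs and a median r of 0.79, and deviations from the run means 26 pairs and 0.73. The runs hold too few libraries for an r within each.

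**Figure D4:**
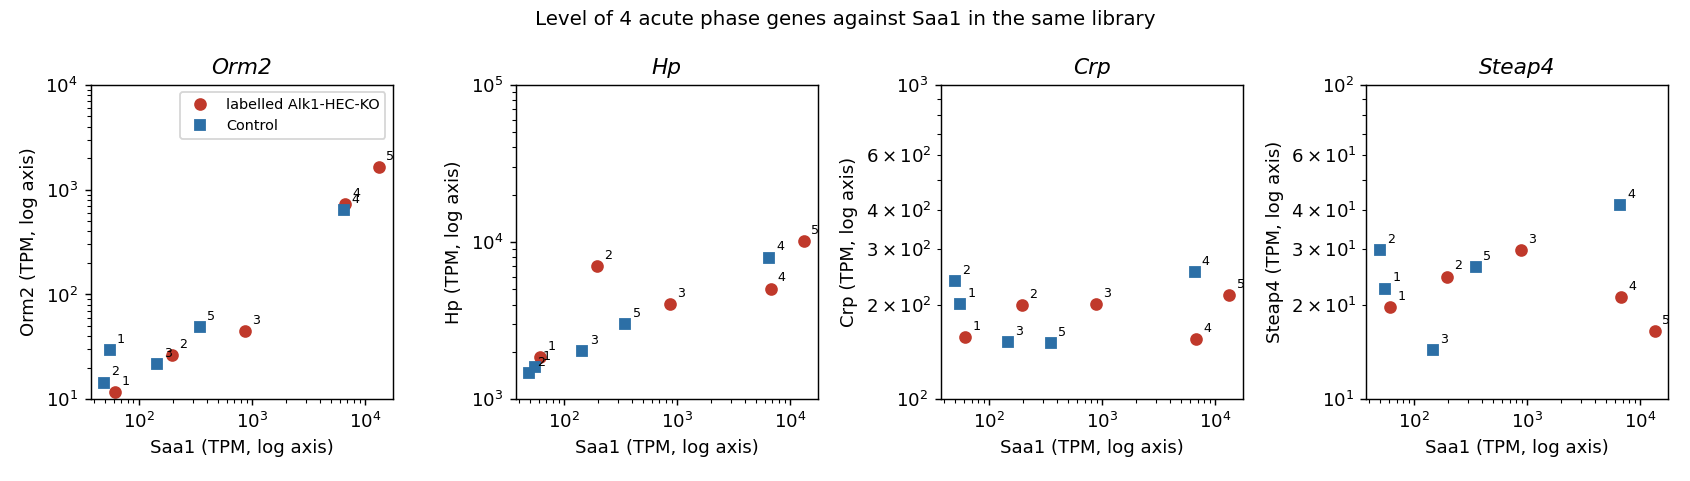
TPM of Orm2, Hp, Crp and Steap4 against TPM of Saa1 in the same library (both axes log), with circles for libraries labelled Alk1-HEC-KO, squares for Control and numbers for the library. Orm2 and Hp climb with Saa1 in both groups, with library 2 labelled Alk1-HEC-KO at 7071 TPM of Hp and 196 TPM of Saa1. Crp and Steap4 follow Saa1 less closely. In log2 CPM their r with Saa1 was 0.36 and 0.23, and 0.50 and 0.46 for deviations from the group means.

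The other positive acute phase genes, a list of 23, moved with the 10 genes from liver to liver. None of the 23 was called between the groups by edgeR or DESeq2 (1 with an unadjusted p under 0.05, against 8.44% of all tested genes). Of their differences 22 were above and 1 below 0 (50.4% of all tested genes were above 0). The median log2 fold change was 0.43, against 0.0022 over all tested genes. Without the 3 high libraries this median was 0.44, again with 22 above and 1 below 0. The median r of the 23 with the mean standardised level of the 10 genes was 0.84 over the 10 libraries and 0.62 without the 3 high ones, and 21 of the 23 were positive, against a median r of 0.0076 over all tested genes. Hpx, the haem-binding hemopexin, reached r = 0.96 (0.76 without the 3 high libraries), and stood at 3207, 5331, 5716, 9309.9 and 12549.7 TPM in the labelled Alk1-HEC-KO libraries and 2422, 2430.1, 2545, 11510.2 and 3827 TPM in Control libraries. Apcs, serum amyloid P component and a relative of Crp, reached r = 0.95 (0.57 without the 3), and stood at 95.2, 171, 183, 258 and 977 TPM in the labelled Alk1-HEC-KO libraries and 60.1, 92.5, 86.0, 476 and 91.1 TPM in Control libraries. The same 3 libraries were highest for both. The protease inhibitor gene Serpina3n had r = 0.85 (0.66 without the 3) and a log2 fold change of 0.79 ± 0.56 (edgeR adjusted p = 0.743). Hamp, which encodes the iron hormone hepcidin, followed the set less closely (r = 0.40, and -0.16 without the 3). It had 5809, 2351, 3279, 4339 and 3474 TPM in the labelled Alk1-HEC-KO libraries and 2733, 1134, 1152, 2844 and 1463 TPM in Control libraries, with a log2 fold change of 1.03 ± 0.34 (edgeR adjusted p = 0.379).

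Library 2 labelled Alk1-HEC-KO had these genes in other proportions than the 3 high libraries. More than 2-fold above the Control median were 14 of the 23 genes there but only 3 of the 10 acute phase genes, Saa3, Lcn2 and Hp. In libraries 4 and 5 of that label the counts were 11 and 16 of the 23 and 7 and 8 of the 10, and in Control library 4 they were 15 of the 23 and 8 of the 10. Some genes of the list, chosen after their values were seen, show this. The metallothionein gene Mt1, whose product binds zinc and copper, stood at 59.1, 2093, 345, 1153 and 3245 TPM in the labelled Alk1-HEC-KO libraries and 34.9, 27.3, 55.8, 2176 and 200.3 TPM in Control libraries. Library 2 was thus close to Control library 4 for Mt1, while its Saa1 was 196 TPM against 6586 TPM. Lrg1, a leucine-rich plasma glycoprotein, stood at 1578 TPM and Lbp, the lipopolysaccharide-binding protein gene, at 132 TPM in library 2 labelled Alk1-HEC-KO, against Control medians of 438 and 34.0 TPM.

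**Figure D5:**
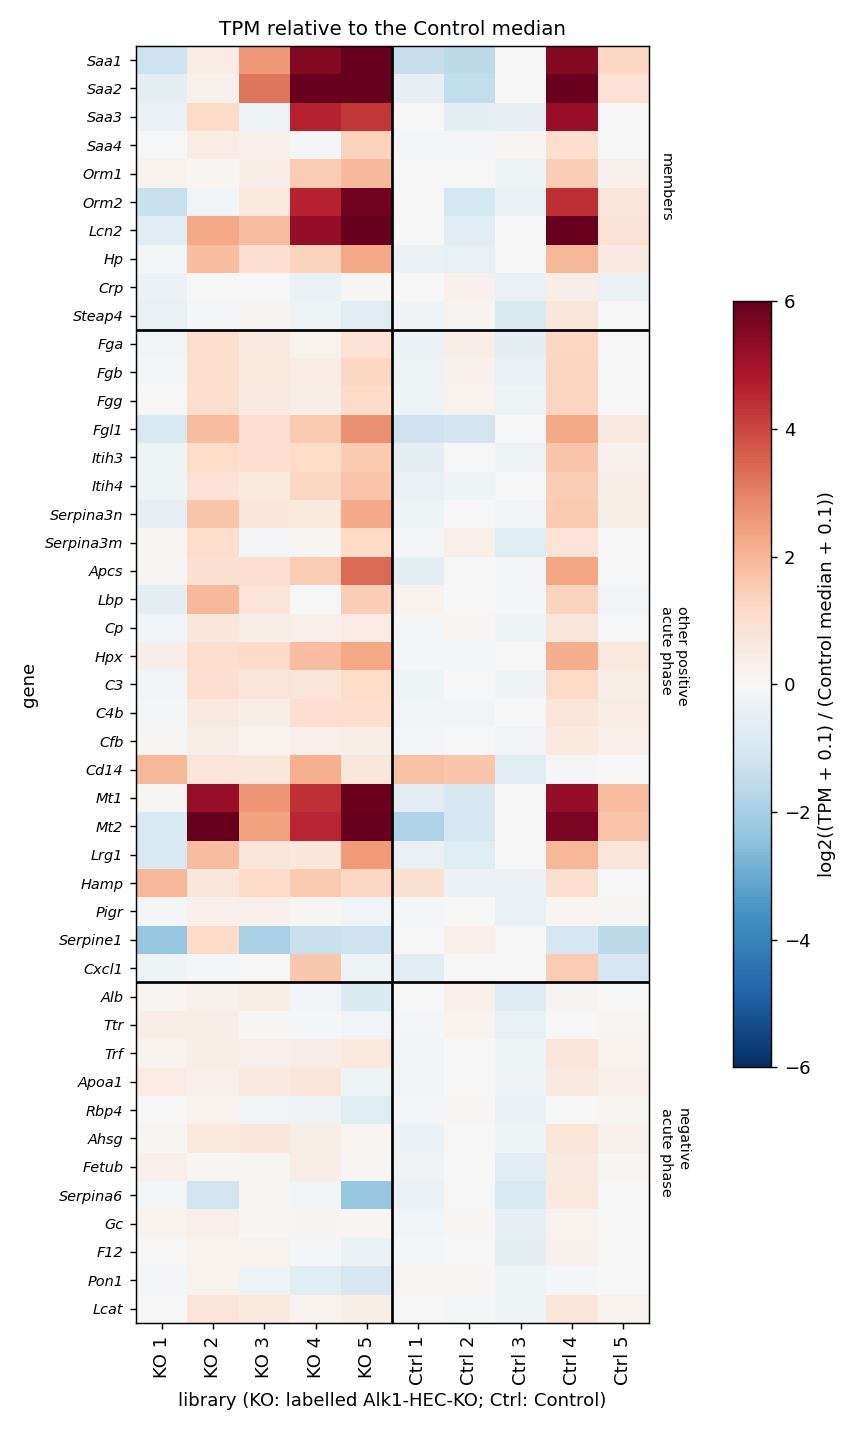
Log2 ratio of TPM to the Control median (0.1 TPM added to both; the colour scale stops at 6) for the 10 acute phase genes, 23 other positive and 12 negative acute phase genes, with libraries labelled Alk1-HEC-KO on the left and Control on the right. In library 2 labelled Alk1-HEC-KO, Mt1 (5.23) and Mt2 (6.40) are among the darkest cells while Saa1 is at 0.42, and the negative genes are pale in all 10 libraries, with 3 ratios beyond 2-fold.

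Of the 12 negative acute phase genes, whose products typically fall during the response, none was called by edgeR or DESeq2 (1 with an unadjusted p under 0.05, 7 above and 5 below 0, median log2 fold change 0.09). Of all tested genes 8.44% had such a p and 50.4% were above 0. The median r of the 12 with the 10 genes was 0.33, and 0.01 without the 3 high libraries. Over all 10 libraries r ran from -0.70 to 0.92, and 7 of the 12 were positive, among them Lcat (0.74), Fetub (0.71) and Ahsg (0.70). Trf, the iron carrier transferrin, had r = 0.92 (0.50 without those 3) and stood at 12974 to 16900.0 TPM in the labelled Alk1-HEC-KO libraries and 9233 to 18218 TPM in Control libraries. Pon1, the paraoxonase of high-density lipoprotein, had r = -0.70 (-0.32 without those 3), with 363, 437, 314, 237 and 189.6 TPM in the labelled Alk1-HEC-KO libraries and 396, 411, 318, 348 and 383 TPM in Control libraries (log2 fold change -0.38 ± 0.16, edgeR adjusted p = 0.534). Alb, the most abundant of them, had r = -0.46 (-0.10 without those 3). Serpina6, the corticosteroid carrier, had r = -0.25 (-0.07 without those 3). It was lowest at 45.9 TPM in library 5 labelled Alk1-HEC-KO, against a Control range of 118 to 330.2 TPM. The 330.2 TPM, the most of all 10 libraries, belonged to Control library 4, also 1 of the 3 high libraries.

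Most of the cytokines that can drive these genes were at low levels in liver RNA. Of the 11 listed, Ctf1, Il1a and Il1b passed the filter on low counts, and none of these 3 was called by edgeR or DESeq2 or had an unadjusted p under 0.05. Tnf, below the filter, had a mean log2(TPM + 0.1) higher by 0.74 in libraries labelled Alk1-HEC-KO (exact permutation p = 0.048 over splits of 5 against 5, not adjusted). The groups overlapped for Tnf, with 3 of the 5 libraries of that label above the highest Control. For Il6 this difference was 0.57 (exact permutation p = 0.167, not adjusted). Il6 was listed at 0, 0.071, 0.115, 0 and 0.095 TPM in the labelled Alk1-HEC-KO libraries, from 3 estimated counts in all, and at 0 in the 5 Control libraries. Il22 was listed at 0 in all 10. Il1b stood at 0.344 to 1.17 TPM in the labelled Alk1-HEC-KO libraries and 0.184 to 1.25 TPM in Control libraries, with r = -0.12 with the 10 genes (0.15 without the 3 high libraries). Ctf1, a cytokine of the IL-6 family, was the most abundant of the list, at 2.37 to 4.67 TPM in the labelled Alk1-HEC-KO libraries and 3.33 to 4.31 TPM in Control libraries, with r = 0.24 (0.67 without the 3). Il1a stood at 0.386 to 1.75 TPM in the labelled Alk1-HEC-KO libraries and 0.513 to 1.22 TPM in Control libraries, with r = -0.51 (0.73 without the 3). None of the 11 receptors, 15 kinases and transcription factors or 8 tested feedback inhibitors was called by edgeR or DESeq2, with median log2 fold changes of -0.05, 0.04 and 0.38 for these lists, and Zfp36 alone had an unadjusted p under 0.05 in edgeR (log2 fold change -0.63 ± 0.28, edgeR adjusted p = 0.584). The r of the 11 receptors with the 10 genes ran from -0.73 to 0.75 with a median of 0.04, and 7 were positive. Il6ra, the IL-6 receptor chain, had r = -0.59 (-0.78 without the 3 high libraries) and stood at 3.52 to 10.2 TPM in the labelled Alk1-HEC-KO libraries and 4.55 to 14.6 TPM in Control libraries. Tnfrsf1a, a receptor of TNF, had the highest r of the list, 0.75 (0.34 without the 3), and stood at 33.1 to 50.6 TPM in the labelled Alk1-HEC-KO libraries and 30.3 to 62.3 TPM in Control libraries. Socs3 was the feedback inhibitor that followed the 10 genes most closely (r = 0.79, and 0.62 without the 3), with 1.73, 7.87, 4.81, 7.91 and 5.25 TPM in the labelled Alk1-HEC-KO libraries and 4.87, 2.55, 1.80, 5.71 and 1.76 TPM in Control libraries (log2 fold change 0.76 ± 0.39, edgeR adjusted p = 0.640). Stat3, with r = 0.44 (0.29 without the 3), was highest in library 2 labelled Alk1-HEC-KO (27.5 TPM) and in Control library 4 (26.6 TPM), against 9.75 to 19.5 TPM in the other 8. Il6ra, Tnfrsf1a, Ctf1, Il1a and Stat3 were named after their values were seen. Of the listed receptors and partners of the proteins, 5 of 10 were tested and none was called by edgeR or DESeq2. All 5 were above 0 and 2 had an unadjusted p under 0.05, against 50.4% and 8.44% of all tested genes. Hmox1, which degrades the haem that Hp and Hpx help to clear, had a log2 fold change of 0.63 ± 0.22 (edgeR adjusted p = 0.408).

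Markers of other cells were set beside these values, since Lcn2 is also made by neutrophils and Saa3 by macrophages. For the counts below, 50.4% of all tested genes had a fitted difference above 0 and 8.44% an unadjusted p under 0.05. Of all tested genes edgeR called 0.357%, and DESeq2 called 1.18% of those it tested. The 12 neutrophil markers summed to 3.05 to 25.6 TPM in the labelled Alk1-HEC-KO libraries and 1.29 to 6.75 TPM in Control libraries. The sum was highest in libraries 5 (25.6 TPM) and 4 (12.4 TPM) labelled Alk1-HEC-KO and in Control library 4 (6.75 TPM), the 3 libraries with the most Lcn2. Of these markers 8 were under 1 TPM in every library, 9 were at 0 in at least 1 library, and Ly6g, which defines neutrophils, was at 0 in 7 of 10. Ly6g was highest in Control library 4, at 0.639 TPM. Both of the 2 tested markers had a fitted difference above 0, 1 with an unadjusted p under 0.05, and none was called by edgeR or DESeq2. Exact permutation p, not adjusted, was 0.048 for Retnlg, 0.063 for S100a8 and 0.198 for S100a9, each higher on average in libraries labelled Alk1-HEC-KO. S100a9, a neutrophil calcium-binding protein, had r = 0.81 with the 10 genes and 0.18 without the 3 high libraries. The 11 Kupffer cell markers summed to 220.2 to 423 TPM in the labelled Alk1-HEC-KO libraries and 138 to 218 TPM in Control libraries. All 11 fitted differences were above 0 (median log2 fold change 0.73, and 0.29 without the 3 high libraries), 10 had an unadjusted p under 0.05, none was called by edgeR, and DESeq2 called Cd5l, Marco and Vsig4. The r of the 11 with the 10 acute phase genes ran from 0.19 to 0.61 with a median of 0.43, and 0.24 without the 3 high libraries. Control library 4, the highest for Saa3, had a sum of 170.3 TPM. In the labelled Alk1-HEC-KO libraries the 6 monocyte markers summed to 34.1 to 92.2 TPM, the 7 lymphocyte markers to 3.67 to 8.89 TPM and the 6 adipocyte markers to 3.28 to 14.1 TPM. In Control libraries these sums were 22.8 to 34.7 TPM, 1.67 to 3.76 TPM and 3.39 to 6.73 TPM. All 4 tested monocyte markers had a fitted difference above 0, 1 with an unadjusted p under 0.05, and none was called by edgeR or DESeq2. Of the 6 adipocyte markers only Lep was at 0 in all 10 libraries. Fabp4 stood at 3.28 to 13.9 TPM in the labelled Alk1-HEC-KO libraries and 3.29 to 5.35 TPM in Control libraries. Adipoq was above 0 in libraries 1, 2 and 4 labelled Alk1-HEC-KO, at up to 0.275 TPM, and at 0 in every Control library. Plin1 was above 0 only in Control libraries 3 and 5, at up to 0.0771 TPM. All 3 tested lymphocyte markers had a fitted difference above 0 and an unadjusted p under 0.05 (median log2 fold change 1.36, and 0.85 without the 3 high libraries), and none was called by edgeR or DESeq2. The 6 endothelial markers summed to 33.7 to 65.2 TPM, the 6 stellate cell markers to 52.7 to 147 TPM and the 5 cholangiocyte markers to 16.5 to 51.3 TPM in the labelled Alk1-HEC-KO libraries, with library 4 highest for each, and in Control libraries to 23.6 to 53.7 TPM, 62.9 to 88.8 TPM and 15.1 to 27.8 TPM. Their median log2 fold changes were 0.30, 0.19 and 0.09, and without the 3 high libraries 0.12, -0.33 and -0.71. None of these markers was called by edgeR, and DESeq2 called Pecam1 among the endothelial markers (edgeR log2 fold change 1.02 ± 0.28, adjusted p = 0.259) and Sox9 among the cholangiocyte markers (1.16 ± 0.30, edgeR adjusted p = 0.190). Of the 10 hepatocyte markers 4 had differences above and 6 below 0, none was called by edgeR, and DESeq2 called Cyp2e1, which had 2337, 2724, 1519, 994 and 715 TPM in the labelled Alk1-HEC-KO libraries and 3264, 3436, 2739, 3099 and 3227 TPM in Control libraries (edgeR log2 fold change -1.06 ± 0.26, adjusted p = 0.174). In TPM the groups did not overlap for Cyp2e1, which was lowest in libraries 4 and 5 labelled Alk1-HEC-KO but not low in Control library 4. The 8 immediate early genes were listed as a possible sign of handling, which the labels do not describe. They summed to 82.4 to 213 TPM in the labelled Alk1-HEC-KO libraries and 124 to 415 TPM in Control libraries. All 7 that were tested had fitted differences below 0 (median log2 fold change -1.32, 4 with an unadjusted p under 0.05, none called by edgeR and Fos called by DESeq2). Mitochondrially encoded genes took 7.59 to 12.01% of counts in the labelled Alk1-HEC-KO libraries and 5.82 to 16.6% in Control libraries. The part of these cell types and of handling in the acute phase values was not tested.

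Few other genes followed the mean standardised level of the 10 at a strict cut. Among the other 12862 tested genes, 24 (0.187%) had an r of at least 0.9 with it. Over all tested genes, the 10 included, 30 had an r of at least 0.9, 133 (1.03%) of at least 0.8 and 1740 (13.5%) of at least 0.5. At the matching negative cuts the counts were 8, 116 and 1830. The phospholipid flippase gene Atp11a was the most alike (r = 0.97 over 10 libraries and 0.92 without the 3 high ones), with 0.523, 2.34, 2.38, 2.55 and 4.63 TPM in the labelled Alk1-HEC-KO libraries and 1.44, 1.30, 1.46, 5.38 and 1.91 TPM in Control libraries. Next were the membrane protein gene Tmem176b (r = 0.97) and the protease inhibitor gene Serpina10 (r = 0.96), then Hpx, Tmem176a, Apcs, Prtn3, Tpm1, Ccdc17, Clu, Cyb561, Cpne8, Trf, Itih3 and Cd302 (r from 0.95 down to 0.92 after Hpx). Without the 3 high libraries r of these 15 genes ran from 0.38 for Cd302 to 0.92 for Atp11a. Prtn3, a serine protease known from neutrophil granules, stood at 0.796, 1.64, 4.48, 7.08 and 15.2 TPM in the labelled Alk1-HEC-KO libraries and 0.483, 0.998, 0.977, 63.6 and 1.30 TPM in Control libraries. The highest Prtn3 value was in Control library 4, where Saa3 was also highest. Of the neutrophil markers, Elane stood at 0.334 TPM, Mpo at 0.114 TPM and Ly6g at 0.639 TPM in that library. Whether Prtn3 RNA came from neutrophils was not tested. At the other end were Myo6 (r = -0.93), Add3 (-0.92), the peroxisomal transporter gene Abcd3 (-0.92), the catalase gene Cat (-0.91) and the respiratory chain gene Uqcrc2 (-0.90), for which r without the 3 ran from -0.91 for Uqcrc2 to -0.42 for Cat. Cat stood at 1057, 1141, 1232, 767 and 434 TPM in the labelled Alk1-HEC-KO libraries and 988, 1416, 822, 840.0 and 925 TPM in Control libraries, lowest where Saa1 was highest.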

How the data were processed

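Whole liver RNA of 10 libraries was grouped by the genotype in the labels. The authors deposited, per library, estimated counts per gene and TPM per gene. Per the submitters' processing notes, Trim Galore 0.6.4, kallisto 0.4.6 and build GRCm38.p6 were used; how transcripts were summed to genes and whether strand was used are not given in the sources used here. Symbols came from GENCODE M21 (GRCm38), which matched 55144 of 55385 IDs. The expected counts deposited by the authors were rounded to whole numbers. After filterByExpr and TMM scaling, edgeR 4.0.16 (R 4.3.3) fitted a robust quasi-likelihood model by group, and p-values were adjusted over 12872 genes by the Benjamini-Hochberg method. DESeq2 1.42.0 and limma 3.58.1 on log2(TPM + 0.1) or log2(TPM + 1) were alternatives. Fold changes are labelled Alk1-HEC-KO over Control. Correlations used log2 CPM (prior count 2) and permutation p-values from 100000 permutations, or exact ones for 7 libraries. The group fit and the correlations were tested on simulated data. The acute phase genes, pathway lists and markers were chosen with earlier results of these data known. Named genes were the 10, Acvrl1, Orm3, per list the called genes or else the 4 with the smallest p and the most abundant, and the 15 most and 5 least alike with a mean of at least 1 TPM.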

Additional observations from a re-analysis of the deposited data

Results flagged for a closer look

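Control library 4 lay far above the other 4 Control libraries for 4 of the 10 genes on a log scale, log2(TPM + 0.1). Its Saa2 was 5332 TPM, with a gap to the next library of 0.722 of the log2 range of the group. Its Saa3 was 420.6 TPM with a gap of 0.897, its Saa4 217.1 TPM with a gap of 0.857, and its Lcn2 591.8 TPM with a gap of 0.788, all on that scale. The 95% critical value of Dixon's test for 5 libraries is 0.71. Of 20 sets of 5 values tested on the log scale (10 genes in each group) these 4 passed, where chance alone would give about 1 in 20, and all 4 come from the same library, so they are not independent. In the labelled Alk1-HEC-KO group, where libraries 4 and 5 were both high, none passed on the log scale.

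On the linear TPM scale, tried after the data were seen, 10 of the 20 sets passed. Library 5 labelled Alk1-HEC-KO then stood out for Lcn2 (gap 0.805 of the TPM range) and Saa4 (0.738), and Control library 4 for 8 genes, Saa1 (0.954), Saa2 (0.989), Saa3 (0.991), Saa4 (0.899), Orm1 (0.816), Orm2 (0.945), Lcn2 (0.988) and Hp (0.764).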

How the results depend on the processing

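No acute phase gene was called under any of the 20 alternatives. Of 198 alternative log2 fold changes of the 10 genes, 13 reversed. With the run of file numbers as a covariate the values were -0.59 for Saa1, -0.86 for Saa2, -1.98 for Saa3, -0.15 for Saa4, -0.11 for Orm1, -1.71 for Orm2, -1.94 for Lcn2 and -0.02 for Hp. These rest on libraries 1 and 3 labelled Alk1-HEC-KO against Control, so they differ from the main fit in the libraries compared. Without the 3 libraries with the highest Saa1, a setting chosen after seeing the data, Orm2 was at -0.31. Leaving out 1 library at a time gave -0.21 to 3.52 for Saa3, -0.24 to 0.50 for Saa4 and -0.84 to 5.64 for Lcn2. Saa3 was below 0 without library 4 (-0.12) or 5 labelled Alk1-HEC-KO, and Saa4 and Lcn2 without library 5. Over the same left-out libraries the median log2 fold change of the 10 ran from -0.03 to 2.49, the pairs that passed from 19 to 32, and the genes in the top 5% of spread from 6 to 7. In place of 28 pairs, 14 passed with Spearman's rho, 15 of 28 with Saa1 and Saa2 summed and the orosomucoid genes summed (fewer pairs by construction), and 2 without the 3 high libraries, where 4 genes were in the top 5% of spread. Over all genes, 46 were called, against 119 with no filter, 152 with DESeq2, 5 with the run, 83 without library 1 labelled Alk1-HEC-KO and 30 without the 3 high libraries; the cause was not tested.

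The titles give both groups the numbers 1 to 5. Deviations of same-numbered libraries correlated at 0.276, 0.084, -0.1, -0.038 and 0.108, and 2 of 5 libraries labelled Alk1-HEC-KO correlated best with the Control of their own number. Whether same-numbered libraries are paired is not stated in the titles and was not tested. The log2 fold change of Saa1 was 1.74 ± 0.95 with the replicate number as a block, against 1.86 ± 1.86 without it. With the replicate block 40 genes were called and 35 pairs passed, and 1 listed gene was called, Hamp (log2 fold change 1.04 ± 0.17, edgeR adjusted p = 0.032). Genes at a few counts, such as Il6, are beyond what this depth can compare.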
